A study of Mus musculus with 2 samples.

Results

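Eosinophil-lineage cells were a small population in the E-cadherin+cKIT+ sort of mouse bone marrow. They were chosen by their own counts. A cell qualified with at least 5000 unique molecular identifiers (UMIs, each marking 1 captured RNA molecule), at least 5 UMIs of Prg2, Prg3 and Epx together, and at least 0.05% of its UMIs from these 3 granule genes. Cells with 0.5% or more of their UMIs from the basophil protease gene Mcpt8 were left out. The rule selected 217 of the 5695 cKIT+ cells with at least 5000 UMIs, or 3.81% (95% interval 3.33 to 4.34). The same rule found 0 of the 1708 cells with at least 5000 UMIs in the E-cadherin+cKIT- sort (95% upper limit 0.216%). Only 45.6% of the 3745 cells of that sort reached 5000 UMIs. The whole series held 10377 cells.

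The study asked which hematopoietic cells of the mouse carry E-cadherin, and sequenced 2 sorted bone marrow populations with the 10x Genomics 3' assay. The cKIT+ and the cKIT- population each gave 1 library. The labels name FVB mice with no treatment, age or sex, whereas the paper names wild-type mice in one place and Vav-iCre;mTmG mice in another. The latter carry a Cre recombinase driven in hematopoietic cells and a fluorescent reporter. Cells of several mice entered the libraries with no map from cells to animals. The paper and the labels also name different versions of the 10x kit. With 1 library per condition there was no replicate, and no comparison below was tested. Every interval is a 95% interval and covers counting error only, exact Poisson for sums, exact conditional binomial for ratios and Clopper-Pearson for shares.

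Eosinophils are granulocytes that arise in the bone marrow from myeloid progenitors under the control of C/EBP, GATA and PU.1 factors, and mature in response to interleukin 5. Their granules hold major basic protein (Prg2 and its homolog Prg3), eosinophil peroxidase (Epx) and the eosinophil-associated ribonucleases of the Ear family. Granule protein genes are transcribed early, in dividing precursors, before the cells leave the marrow.

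Sequence before the transcription start is shown for 6 eosinophil genes, because the Ear genes and Il5ra were not used by the rule and their levels carry the account below. Of 16 genes looked up in the RefSeq promoter table (GRCm38.p6), 13 had an entry. Prg2, Cebpe and Trib1 had none. The 250 bases before each start were searched on both strands for a C/EBP motif (TTGCNNAA) and for the GATA motif in its forms AGATAA and TGATAA and AGATAG and TGATAG. All promoters of the table held them at 9.56% and 26.5%. The stretches run from 140 to 51 bases before the start, 5′ to 3′ on the gene's strand, and capitals mark a match.
Ear1: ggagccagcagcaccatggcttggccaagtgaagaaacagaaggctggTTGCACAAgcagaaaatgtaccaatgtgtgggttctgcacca
Ear2: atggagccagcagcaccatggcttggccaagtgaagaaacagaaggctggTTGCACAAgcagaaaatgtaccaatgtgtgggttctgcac
Ear6: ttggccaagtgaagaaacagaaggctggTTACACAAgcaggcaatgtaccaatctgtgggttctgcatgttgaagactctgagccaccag
Prg3: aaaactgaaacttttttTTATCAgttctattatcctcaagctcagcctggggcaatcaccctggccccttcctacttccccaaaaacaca
Epx: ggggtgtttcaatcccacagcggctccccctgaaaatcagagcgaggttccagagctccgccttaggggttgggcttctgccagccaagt
Il5ra: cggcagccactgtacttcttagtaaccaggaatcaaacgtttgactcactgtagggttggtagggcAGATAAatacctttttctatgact

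Ear1 and Ear2 held the C/EBP motif at 92 and 90 bases before the start, and over 248 aligned bases they were 99.2% identical. Ear1 and Ear6 were 72.2% identical over 230 bases. In Ear6 the capitals mark the bases that stood opposite the Ear1 motif, which differed by G3A, counted from 1 at the first base of the Ear1 motif, so that Ear6 held no match. Prg3 held a GATA motif 123 bases before its start and Il5ra one 74 bases before. Epx, Ldhc, Per3, Nrgn, Eml5, Myb, Gata1 and Siglecf held neither in their windows. Ldhc had 2 entries, and only the first was searched. The stretches lie on chromosome 14 at 43819690-43819779 (Ear1, minus strand), 44102514-44102603 (Ear2, plus) and 51853628-51853717 (Ear6, plus). Those of Prg3, Epx and Il5ra lie at 84988075-84988164 on chromosome 2 (plus), 87875587-87875676 on chromosome 11 (minus) and 106749088-106749177 on chromosome 6 (minus). The starts are those of RefSeq, and GENCODE places those of Ear1 and Ear6 elsewhere. In GENCODE, Ear1 spans 43818765-43875517, which contains its stretch, and Ear6 begins at 51853699, within its stretch. Distances for these genes therefore depend on the RefSeq start. A match is a string of letters and was not tested as a binding site.

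The cKIT+ library held 95477153 UMIs in 6632 cells and the cKIT- library 24033994 UMIs in 3745 cells, and 10 cell barcodes occurred in both. At 5000 UMIs or more, the other cKIT+ cells comprised 3017 Mcpt8-high basophil cells, 1030 Elane-high cells, 344 neutrophil-lineage cells, 18 erythroid cells and 1069 remaining cells. A basophil cell had at least 0.5% of its UMIs from Mcpt8, an Elane-high cell at least 0.5% from Elane, Prtn3, Mpo and Ctsg, a neutrophil-lineage cell at least 0.5% from Ltf, Camp and Ngp, and an erythroid cell at least 1% from hemoglobin genes. An Elane-high cell can therefore pass on Mpo or Ctsg without Elane. Where several rules applied, the eosinophil rule came first, then the basophil, neutrophil and Elane rules. Doublets were not called. A setting without the deepest cells was run, but it does not identify doublets, since a mixed cell need not be among the deepest.

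The members held 3363546 UMIs in all. A member held from 5101 to 42669 UMIs, with a median of 14180, and from 1798 to 6187 genes, with a median of 3547. Mitochondrial genes took a median of 3.66% of a member's UMIs. The granule genes took from 0.0519% to 12.4% of a member's UMIs, with a median of 0.779%, so that members differed over a wide range in the very genes that chose them. The 3 members nearest to the granule limit had 0.0519%, 0.0547% and 0.0568%, and the 3 nearest cells outside had 0.0484%, 0.0456% and 0.0456%. At the Mcpt8 limit the nearest members had 0.493%, 0.472% and 0.456%, and the nearest excluded cells 0.536%, 0.539% and 0.574%. At the depth limit the nearest members had 5101, 5200 and 5401 UMIs, and the nearest excluded cells 4932, 4916 and 4866.

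The 3 granule genes are given as a description, since they chose the cells. Prg2 (chromosome 2, 84980461-84983632, GRCm38) had 33626 UMIs in the members, or 9997 CPM (9891 to 10105), where CPM is a gene's UMIs per 1000000 UMIs summed over the cells of a group, with a median of 63 and a maximum of 1657 UMIs in a cell. Epx (chromosome 11, 87864000-87875536) had 1771 CPM (1726 to 1817), and Prg3 (chromosome 2, 84988215-84993886) had 1325 CPM (1287 to 1365). A UMI of all 3 genes was found in 166 members (76.5%, 70.3 to 82.0), and 17 members had Epx without any Prg2.

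The label was checked with Ear1, Ear2 and Ear6, which the rule did not use. All 3 were far higher in the members than in any other class of cKIT+ cells. Ear1 and Ear2 were not confined to members, since the cKIT- library, with 0 members, had 17.1 and 53.4 CPM of them over all cells. Ear6 had 5.16 CPM there. Ear2 had 293 CPM (275 to 312) in members, 5.90 in Elane-high cells, 18.9 in neutrophil-lineage cells, 36.4 in basophil cells and 27.4 in the remaining cells. Ear6 had 168 CPM (155 to 183) in members and between 0.932 and 2.61 CPM in those 4 classes. Ear1 had 56.2 CPM (48.5 to 64.8) in members and between 0.888 and 9.94 CPM in them. Against all other cKIT+ cells together the CPM ratio was 77.5 for Ear6 (65.8 to 91.7), 11.2 for Ear2 (10.36 to 12.03) and 8.92 for Ear1 (7.53 to 10.5). At least 1 UMI of these genes was found in 154 members (71.0%, 64.4 to 76.9). Ear genes lie in a family of near-identical copies, so reads of 1 copy may have been assigned to another or dropped, and the split between Ear1 and Ear2 is uncertain.

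Among the remaining eosinophil markers, the interleukin 5 receptor gene was present and the eotaxin receptor gene was nearly absent. Il5ra (chromosome 6, 106710357-106749037), which encodes the alpha chain of the interleukin 5 receptor, had 58 UMIs in 46 members. That was 17.2 CPM (13.1 to 22.3) against 0.799 in Elane-high cells and 0.230 in basophil cells, a ratio of 47.0 to all other cells (30.1 to 74.3). Its level was under the 20 CPM that a gene needed to enter the counts below. Siglecf, a surface lectin of eosinophils, had 45.8 CPM (38.8 to 53.6), 2.15 times the Elane-high (1.78 to 2.58) and 4.26 times the basophil level (3.53 to 5.11). Ccr3, the eotaxin receptor gene of mature eosinophils, had 3 UMIs in all members, or 0.892 CPM (0.184 to 2.61), which could not be told from the 1.58 CPM of the other cells at this depth. Of the further family members fixed for the account, Ear10 had 27 UMIs in members, Rnase2a 10, Ear14 2 and Rnase2b 0.

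**Figure D1:**
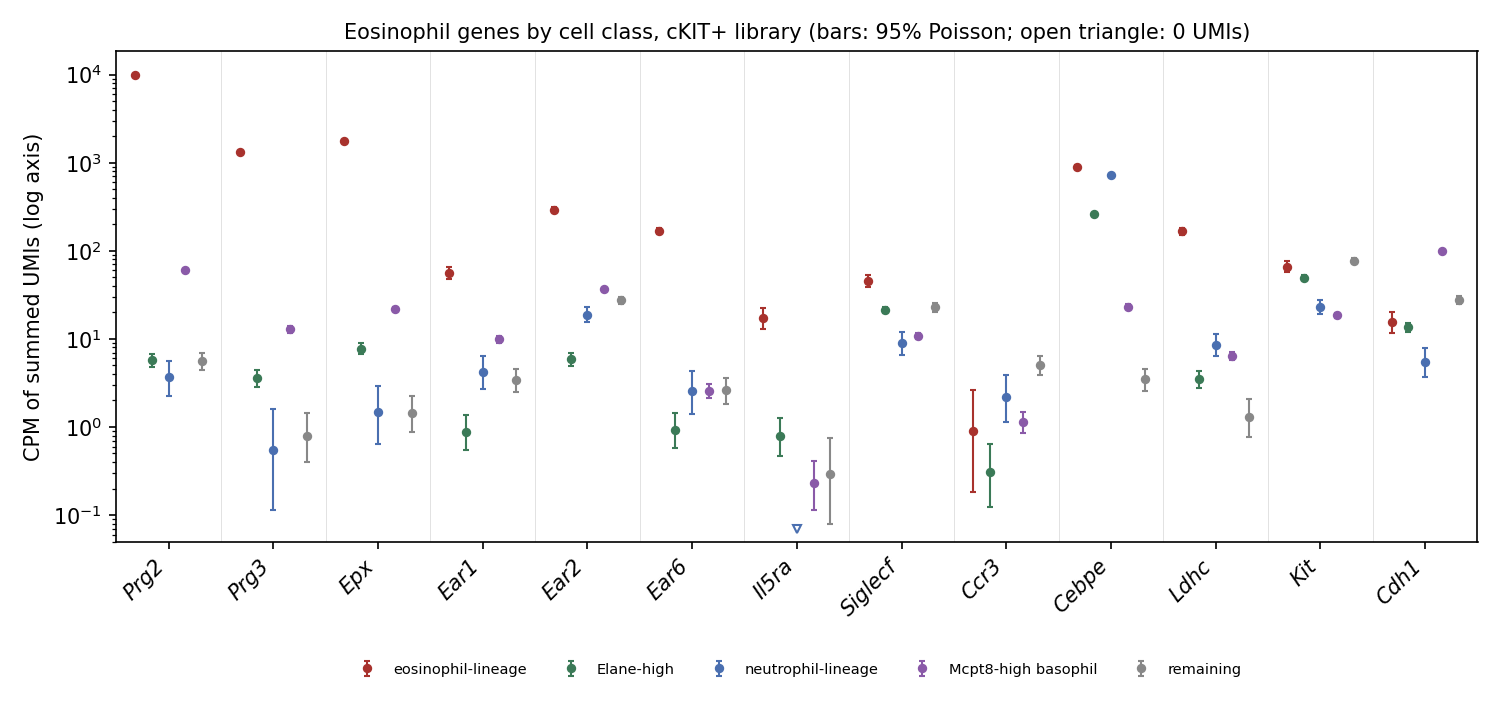
CPM of summed UMIs (log axis) for 13 genes in 5 classes of cKIT+ cells, with exact Poisson 95% bars for counting error only, where an open triangle marks a gene with 0 UMIs in a class. Prg2, Prg3 and Epx chose the cells, and the members also stand highest for Ear1, Ear2, Ear6, Il5ra, Siglecf, Cebpe and Ldhc, while Cdh1 was highest in basophil cells and Ccr3 near 1 CPM in members.

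Across the transcriptome, a gene was counted when it had at least 20 CPM in at least 1 of the groups compared. A counted gene was called higher or lower when its CPM differed by 2-fold or more. Against all other cKIT+ cells, 114 of 5904 genes were higher (1.93%) and 220 were lower (3.73%). Against Elane-high cells 86 of 5775 genes were higher (1.49%) and 41 lower (0.71%). Against Mcpt8-high basophil cells 241 of 5931 were higher (4.06%) and 317 lower (5.34%). Prg2, Prg3, Epx and Mcpt8 were left out of these counts. Against Elane-high cells Elane, Prtn3, Mpo, Ctsg, Ltf, Camp and Ngp were left out as well. Other genes used by the class rules were kept in. Counts of gene lists below are to be read against these shares. With trimmed-mean (TMM) scaling in place of CPM the split against basophil cells was 175 higher and 414 lower. The groups differed in summed depth, from 3363546 UMIs in members to 47900535 in basophil cells and 89869805 in all other cKIT+ cells together.

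After the Ear genes, the largest ratios to all other cKIT+ cells belonged to Ldhc, Cebpe, Per3, Nrgn and Eml5. Ldhc (chromosome 7, 46861203-46878142), the testis isoform of lactate dehydrogenase, had 166 CPM in members (152 to 180) and between 1.30 and 8.62 CPM in the other 4 large classes. Its ratio of 33.1 (29.2 to 37.6) was exceeded by that of Ear6 alone among genes with 50 CPM in either group. A UMI of Ldhc was found in 133 members, and the 5 richest cells held 14.7% of its UMIs. Per3, a circadian clock gene, had 55.6 CPM against 9.90 in the other cells, a ratio of 5.61 (4.77 to 6.58). Nrgn, a calmodulin-binding protein gene known from neurons, had a ratio of 5.16 (4.35 to 6.08), and Eml5, a microtubule-associated protein gene, one of 4.58 (3.91 to 5.35). B4galt6, a lactosylceramide synthase gene, had a ratio of 4.05 (3.58 to 4.57), and Deptor, an inhibitor of mTOR, one of 3.88 (3.31 to 4.53).

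Per3, Nrgn and B4galt6 were also above the basophil level in Elane-high cells. Nrgn had 50.5 CPM in members, 19.2 in Elane-high cells and 2.02 in basophil cells. B4galt6 had 91.9 CPM in members, 69.8 in Elane-high cells and 3.74 in basophil cells, so that its member and Elane-high levels were within 2-fold. Ldhc had 3.51 and 6.39 CPM in Elane-high and basophil cells and shared no such order. Dach1, Ankrd28, Ago1, Adgrl4 and 1700123O20Rik completed the 15 largest ratios, at between 3.05 and 3.32.

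Genes with the smallest ratios to all other cells marked other cell types. They included immunoglobulin (Igkc, ratio 0.00693, and Ighm, 0.0694), antigen presentation (Cd74, 0.0134, and H2-Aa, 0.0286), red cell genes (Hba-a1, 0.0149, Hbb-bs, 0.0239, and Car1, 0.0252) and basophil genes (Gpr34, 0.0335, Prss34, 0.0422, and Igfbp7, 0.0748). Of the 10 basophil markers fixed for the account, 7 were counted against all other cells and 6 were lower, among them Fcer1a (0.133), Ms4a2 (0.233) and Cpa3 (0.380). Over all genes counted 3.73% were lower. Basophil cells made up 3017 of the 5478 other cells, and the rule removed Mcpt8-high cells. Against Elane-high cells 0 of 7 were higher or lower, and the list summed to 2712 CPM in members and 2759 CPM in Elane-high cells.

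Some transcriptional regulators differed between the members and the neighbouring classes. Of 30 fixed myeloid fate factors, 3 were higher and 8 lower among the 25 counted against all other cells. Against Elane-high cells 5 were higher and 2 lower of 24, and against basophil cells 4 were higher and 7 lower of 24. The median log2 ratio of the list was 0.08, -0.06 and 0.11 in these comparisons, near the 0.03, -0.03 and 0.05 over all genes counted. Over all genes counted 1.93% were higher and 3.73% lower than in all other cells. The shares were 1.49% and 0.71% against Elane-high cells, and 4.06% and 5.34% against basophil cells.

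Cebpe (chromosome 14, 54710360-54712174), the C/EBP factor of late granulocyte differentiation, was one of the members' leading genes. It had 900 CPM in members (868 to 933), 726 in neutrophil-lineage cells (704 to 749), 263 in Elane-high cells (256 to 270), 23.2 in basophil cells and 3.48 in the remaining cells. Its ratio was 3.42 to Elane-high cells (3.27 to 3.57) and 38.8 to basophil cells (36.2 to 41.6). It was found in 214 of 217 members, with a median of 12 and a maximum of 52 UMIs in a cell. Trib1, a pseudokinase that promotes degradation of C/EBP alpha, had 86 UMIs in members, or 25.6 CPM, and its ratio was 9.44 to Elane-high cells (6.72 to 13.3) and 3.41 to basophil cells (2.66 to 4.33). Cebpa, the C/EBP factor of early myeloid progenitors, ran the other way. It had 168 UMIs in members, with a ratio of 0.396 to Elane-high cells (0.337 to 0.463) and 0.153 to basophil cells (0.131 to 0.178).

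Gata1, a GATA factor needed for eosinophil formation, had 40.1 CPM in members (chromosome X, 7959260-7978071). That was 2.70 times the Elane-high level (2.19 to 3.31) and within 2-fold of the basophil level of 36.2 CPM (ratio 1.11, 0.925 to 1.32). Gata2, which is high in basophil and mast cell precursors, had 97.2 CPM in members, 163 in Elane-high cells and 698 in basophil cells. Its ratio to all other cells was 0.197 (0.176 to 0.220), and 0.104 when members with 0.1% or more Mcpt8 were left out. Irf8, a factor of monocyte and dendritic cell fate, had 10 UMIs in all members, or 2.97 CPM, against 57.6 CPM in Elane-high cells, a ratio of 0.0516 (0.0247 to 0.0953). That was the smallest ratio to Elane-high cells among genes with 50 CPM.

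Myb, a factor of proliferating progenitors, had 857 CPM in members, 468 in Elane-high cells and 225 in basophil cells, and was found in 216 members. Its ratio was 1.83 to Elane-high cells (1.76 to 1.91) and 3.81 to basophil cells (3.66 to 3.97). Ikzf2 and Stat5b, the second a transducer of interleukin 5 signals, were higher than in Elane-high cells, at ratios of 2.15 (2.00 to 2.31) and 2.12 (1.74 to 2.57). Spi1, which encodes PU.1, had 234 CPM in members and 239 in Elane-high cells. Xbp1, which secretory cells need, had 103 CPM in members and 110 in Elane-high cells.

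**Figure D2:**
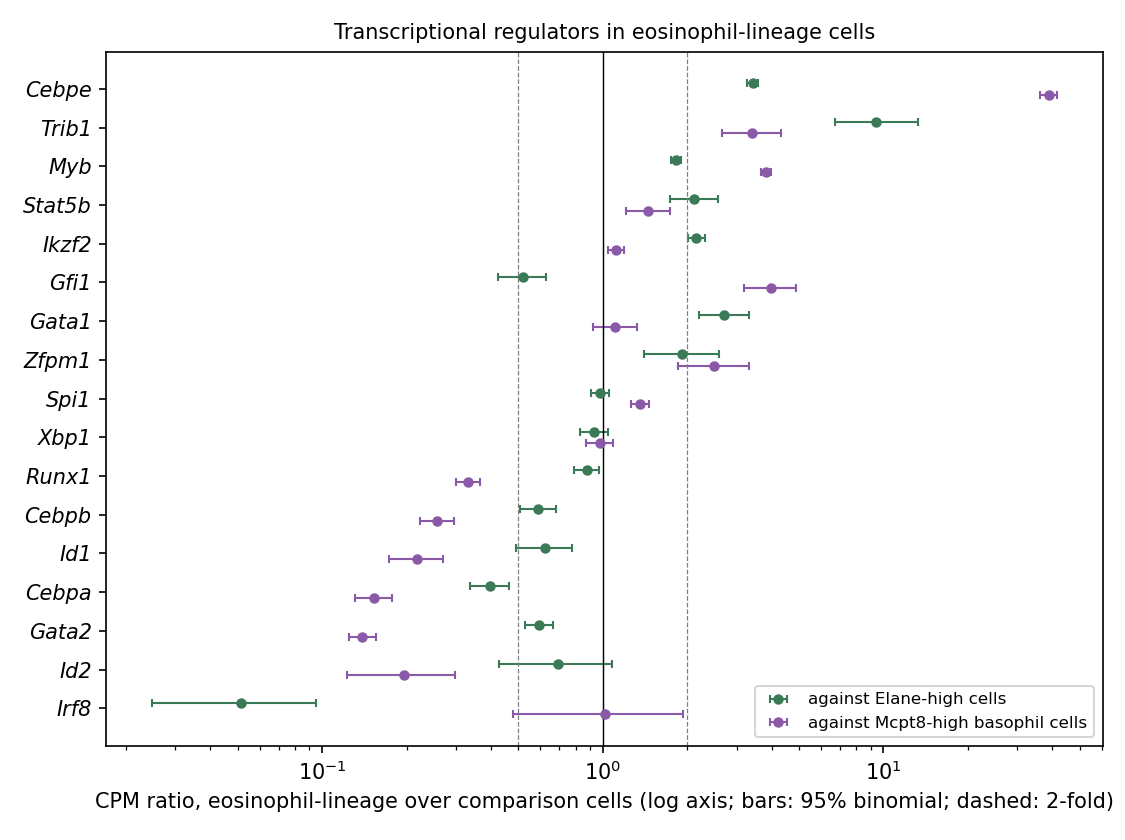
CPM ratio of eosinophil-lineage cells to Elane-high cells (green) and to Mcpt8-high basophil cells (purple) for 17 regulators on a log axis, with exact 95% bars for counting error only and dashed lines at 2-fold. Cebpe and Trib1 lie above 2-fold in both comparisons and Cebpa below it in both, while Gata1 and Irf8 depart from 1 against Elane-high cells and Gata2 and Runx1 lie past 2-fold lower against basophil cells and within 2-fold against Elane-high cells.

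Primary granule genes, which are shared by early granulocyte and monocyte precursors, were present in nearly all members. Of 11 such genes, 1 was higher and 0 lower than in all other cells (Prss57, ratio 2.22, 2.06 to 2.39), and the median log2 ratio was -0.40 against 0.03 over all genes counted. Of all genes counted 1.93% were higher and 3.73% lower. Mpo, the myeloperoxidase gene, had 5890 CPM in members, 7466 in Elane-high cells and 3312 in basophil cells. Elane (chromosome 10, 79886247-79888215), the neutrophil elastase gene, had 1293 CPM in members, 7914 in Elane-high cells and 283 in basophil cells. The 4 genes that define the Elane-high class met that class's limit in 172 of the 217 members (79.3%, 73.2 to 84.5). With 5000 UMIs drawn from each cell, both Elane and Epx were found in 151 members (69.6%, 63.0 to 75.6).

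Shares of cells with a UMI were compared after drawing 5000 UMIs from each cell, which left out no cell. Elane was then found in 80.2% of members (74.2 to 85.3), against 69.3% of Elane-high cells (66.4 to 72.1), 16.3% of basophil cells and 5.56% of the 18 erythroid cells, which should lack it (0.141 to 27.3). Without thinning Elane was found in 88.9% of members. The median depth before thinning was 14180 UMIs in members and 8252 in erythroid cells. Mcpt8 was found in 77.4% of members (71.3 to 82.8) and 93.1% without thinning, but also in 66.7% of erythroid cells (41.0 to 86.7), so that a share of this size says little on its own. Mcpt8 made up 0.1% or more of the UMIs in 48 members (22.1%, 16.8 to 28.2), with a median of 4 and a maximum of 179 UMIs in a cell, and the 5 richest cells held 24.99% of its UMIs. Camp was found in 16.1% of members (11.5 to 21.7) and 38.9% of erythroid cells (17.3 to 64.2), so that the share of members with a UMI was not above background, although 5 cells held 92.6% of its UMIs.

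Genes of neutrophil secondary granules came from a few cells. Of 14 such genes, 12 were counted against all other cells, with 0 higher and 10 lower and a median log2 ratio of -1.99. Over all genes counted 3.73% were lower. The other cells included the 344 neutrophil-lineage cells, which were chosen by Ltf, Camp and Ngp. These genes are among the 10, so the direction was set in part by that rule. With all members included, 5 of 7 were higher and 1 lower than in Elane-high cells (1.49% and 0.71% over all genes counted). Against basophil cells 2 of 10 were higher and 0 lower (4.06% and 5.34%). Of the UMIs in members, the 5 richest cells held 96.9% for Ltf, 92.6% for Camp, 89.4% for S100a8 and 99.1% for Retnlg. Of the 217 members, 7 also met the neutrophil rule (3.23%, 1.31 to 6.53). Without them the Camp ratio to all other cells went from 0.251 to 0.00754 and that of S100a8 from 0.279 to 0.0100. Against Elane-high cells Retnlg (ratio 14.5), Lcn2 (12.96), Chil3 (6.99) and S100a9 (3.90) stood among the 15 largest ratios with these cells included. The counts without them were 119 higher and 223 lower against all other cells and 77 higher and 54 lower against Elane-high cells.

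The other genes furthest above the Elane-high level were Arsb, a lysosomal sulfatase gene (ratio 3.74, 3.45 to 4.06), Syne1, a nuclear envelope gene (3.69, 3.37 to 4.03), P2ry14, a receptor for nucleotide sugars (2.73, 2.27 to 3.28) and Hip1r, an endocytosis gene (2.73, 2.36 to 3.15). Furthest below, after Irf8, were Ly6c2, a monocyte surface gene (0.0833, 0.0708 to 0.0974), Cldn15 (0.218), Ptgr1 (0.220), Hp, the haptoglobin gene (0.221), Trem3 (0.243) and Gstm1 (0.269). Csrp3, Ass1 and Gm17590 completed the 10 smallest ratios, at between 0.290 and 0.334. Of 5 monocyte markers 2 were counted against Elane-high cells and both were lower (Ly6c2 and F13a1), and their list summed to 48.8 CPM in members and 623 CPM in Elane-high cells. In this comparison 0.71% of all genes counted were lower.

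Against basophil cells, Alas1 (ratio 5.02, 4.66 to 5.40), the first enzyme of haem synthesis, Prss57 (4.85), Gda (5.20), Mt1 (5.45) and Mphosph8 (8.11) joined the Ear genes, Ldhc, Cebpe, Nrgn, B4galt6, Per3, Deptor and Eml5 among the largest ratios. Haem genes are needed for the peroxidases. Of 12 such genes, 3 of the 6 counted were higher than in basophil cells (Alas1, Tfrc and Slc25a37), while 0 of 7 were higher or lower than in Elane-high cells. Over all genes counted 4.06% were higher than in basophil cells. Alas1 had 286 CPM in members, 482 in Elane-high cells and 56.97 in basophil cells. The smallest ratios to basophil cells were those of Tpd52l1 (0.0172), Gpr34 (0.0197), Cyp4f18 (0.0227), Prss34 (0.0228), Ccl3 (0.0286) and Lat (0.0326).

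Cytokine receptor genes mostly lay below the basophil level. Of 20 cytokine and chemokine receptors, 12 were counted against basophil cells, with 2 higher (Kit and Ifngr1) and 8 lower and a median log2 ratio of -1.23 against 0.05 over all genes counted. In that comparison 4.06% of all genes counted were higher and 5.34% lower. Against Elane-high cells 1 of 9 was lower (Csf3r) and 0 higher, where 0.71% of all genes counted were lower and 1.49% higher. Csf2rb, the common beta chain through which interleukins 3 and 5 signal, had 67.8 CPM in members (59.3 to 77.2), 83.0 in Elane-high cells and 259 in basophil cells. Il3ra, the interleukin 3 receptor alpha gene, had 56.8 CPM in members, 58.2 in Elane-high cells and 164 in basophil cells. Ccr1, a chemokine receptor gene, had a ratio of 0.0494 to basophil cells (0.0293 to 0.0782). Of 13 lipid mediator genes 7 were counted, with 2 higher and 3 lower than in basophil cells and 1 higher and 1 lower than in Elane-high cells. Tbxas1, the thromboxane synthase gene, was higher than in Elane-high cells (ratio 2.60, 2.25 to 3.01) and basophil cells (2.52, 2.20 to 2.88). Alox5 and Alox15, lipoxygenase genes of leukotriene and related lipid synthesis, had ratios of 0.188 and 0.0719 to basophil cells.

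Both genes of the sort were measured in the members. Kit, which encodes cKIT, had 223 UMIs in 134 members, or 66.3 CPM (57.9 to 75.6), against 49.6 in Elane-high cells, 18.5 in basophil cells and 77.6 in the remaining cells. Cdh1, which encodes E-cadherin, had 52 UMIs in 34 members, or 15.5 CPM (11.6 to 20.3). That was close to the 13.6 CPM of Elane-high cells (ratio 1.14, 0.831 to 1.53) and well under the 99.5 CPM of basophil cells (ratio 0.155, 0.116 to 0.204). The 5 richest members held 38.5% of their Cdh1 UMIs. Cdh1 was found in 7.37% of members at 5000 UMIs (4.27 to 11.7), 40.0% of basophil cells and 5.56% of the erythroid cells, which is 1 of 18, so the share in members could not be told from background. E-cadherin protein on the members was not analysed here.

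The secretory and cell-cycle lists had few genes past 2-fold. None of the 29 genes of protein folding and secretion in the endoplasmic reticulum passed 2-fold against all other cells, with a median log2 ratio of 0.13 against 0.03 over all genes counted. Of 22 granule biogenesis and lysosome genes, 20 were counted and 0 were higher, with Rab37 lower and a median log2 ratio of 0.04. Of 14 genes of the BCL2 family 6 were counted, with 0 higher, Bcl2 lower and a median of -0.39. Of 15 surface genes of eosinophils 9 were counted, with Siglecf higher, Itgb2 and Cd9 lower and a median of -0.30. Of 6 genes of E-cadherin and its partners 4 were counted, with Cdh1 lower and a median of -0.51. Of 22 S-phase genes 0 passed 2-fold in that comparison, and the median log2 ratio was -0.07. The 21 genes of G2 and mitosis that were counted had a median log2 ratio of -0.58 and 0 past 2-fold. These lists were all set against all other cells, where 1.93% of all genes counted were higher and 3.73% lower.

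Many members carried transcripts of dividing cells. Mki67 or Top2a was found in 52.5% of members at 5000 UMIs (45.7 to 59.3), against 64.4% of Elane-high cells (61.4 to 67.3), 66.5% of basophil cells (64.7 to 68.1) and 35.9% of the remaining cells (33.0 to 38.9). Without thinning the share in members was 64.1%. Of 14 early progenitor genes 9 were counted, with Myb higher and Ifitm1 lower than in all other cells and a median log2 ratio of 0.17. In this comparison 1.93% of all genes counted were higher and 3.73% lower. Cd34, a progenitor surface gene, had 144 CPM in members, 116 in Elane-high cells and 71.2 in basophil cells.

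To describe how members varied among themselves, they were ranked by granule share and divided into a low-granule group of 73 cells, a mid-granule group of 72 and a high-granule group of 72. Granule shares ran up to 0.383% in the low-granule group, from 0.395% to 1.41% in the mid-granule group and from 1.41% in the high-granule group. The high-granule cells were shallower, with a median of 11452 UMIs against 16646 in the low-granule group. Of 5947 genes counted, 63 were higher (1.06%) and 121 lower (2.03%) in the high-granule group by 2-fold or more. Prg2 is part of the ranking and is given as a description only, at 664, 5122 and 29144 CPM in the low-, mid- and high-granule groups.

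Ear genes, Il5ra and Ldhc stood higher in cells with more granule transcripts. Ear6 had 59.1 CPM (46.7 to 73.8), 163 (140 to 189) and 330 CPM (294 to 369) in the low-, mid- and high-granule groups. Ear2 had 102, 341 and 507 CPM and Ear1 had 20.5, 69.9 and 90.6 CPM in the same order. The ratio of the high- to the low-granule group was 5.58 for Ear6 (4.34 to 7.25), 4.95 for Ear2 (4.08 to 6.05) and 4.43 for Ear1 (2.84 to 7.11). A UMI of an Ear gene was found in 34 of 73, 58 of 72 and 62 of 72 cells, or 46.6%, 80.6% and 86.1%. Ldhc had 93.2, 178 and 254 CPM, a ratio of 2.73 (2.19 to 3.42). Il5ra had 10, 22 and 26 UMIs, or 7.58, 19.7 and 28.0 CPM, a ratio of 3.70 (1.73 to 8.60).

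Of the regulators counted, those that rose along this ranking had smaller ratios than the Ear genes. Gata1 had 28.0, 41.2 and 56.1 CPM, a ratio of 2.00 (1.29 to 3.14) at the edge of the 2-fold limit, which without the 7 cells that met the neutrophil rule it passed (ratio 2.05, 1.30 to 3.28). Cebpe had 776, 933 and 1037 CPM, a ratio of 1.34 (1.22 to 1.46), and Myb had 749, 874 and 991 CPM, a ratio of 1.32 (1.21 to 1.45). Kit had 66.7, 61.8 and 71.2 CPM, a ratio of 1.07 (0.764 to 1.49). Id1, an inhibitor of differentiation, was the only 1 of the 23 fate factors counted to lie past 2-fold with all members included, at 38.6, 22.4 and 8.62 CPM. Dnajb9, an endoplasmic reticulum chaperone gene, had a ratio of 2.06 (1.43 to 3.01) and was the only 1 of 28 genes of its list past 2-fold, which without the 7 cells that met the neutrophil rule it was not (ratio 1.88, 1.29 to 2.74).

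Serine proteases of the primary granule ran in the opposite order. Elane had 2049 CPM (1972 to 2127), 1084 (1024 to 1147) and 470 CPM (427 to 516) in the low-, mid- and high-granule groups, a ratio of 0.229 (0.207 to 0.254). Prtn3, the proteinase 3 gene, had 1540, 776 and 423 CPM and Ctsg, the cathepsin G gene, 2944, 2011 and 1454 CPM, ratios of 0.274 and 0.494. Mpo was held more evenly, at 6575, 5597 and 5268 CPM, a ratio of 0.801 (0.773 to 0.830). Thus 3 of the 11 primary granule genes were lower and 0 higher, against 2.03% lower and 1.06% higher over all genes counted. Ly6c2 had 83.3, 36.7 and 8.62 CPM, a ratio of 0.104 (0.0436 to 0.211).

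Neutrophil genes were far lower in the high-granule group, and this rested on the 7 cells described above, of which 4 were in the low-granule group. Camp had a ratio of 0.0366 with them and 1.03 without (0.607 to 1.74), and S100a8 one of 0.139 with them and 0.608 without (0.440 to 0.832). Without them 62 genes were higher and 97 lower, and the ratios were 5.69 for Ear6, 2.63 for Ldhc and 0.219 for Elane. Retnlg, which was higher in the high-granule group at a ratio of 2.97, had 229 of its 342 UMIs in a single cell.

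Genes of mitosis were lower in the high-granule group. Of 22 G2 and mitosis genes, 6 were lower by 2-fold or more (Ccnb2, Birc5, Cdc20, Bub1, Aurkb and Cenpe), and 5 without the 7 cells. The median log2 ratio was -0.73 against -0.05 over all genes counted, of which 2.03% were lower. The S-phase list had a median log2 ratio of -0.22 with 1 gene lower (Cdc45). Mki67 or Top2a was found in 57.5% (45.4 to 69.0), 55.6% (43.4 to 67.3) and 44.4% (32.7 to 56.6) of cells at 5000 UMIs, so the intervals of the shares overlapped. Top2a had a ratio of 0.638 (0.533 to 0.762) and Mki67 one of 0.646 (0.513 to 0.810).

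The members were also ranked by the share of Ear1, Ear2 and Ear6, which the rule did not use, and the upper and lower groups of this ranking were compared. Prg2 had 16529 and 5746 CPM, a ratio of 2.88 (2.80 to 2.96), Epx one of 3.31 (3.09 to 3.55) and Prg3 one of 1.4 (1.30 to 1.51). Ldhc had a ratio of 1.91 (1.54 to 2.37) and Trib1 one of 2.57 (1.42 to 4.73), while Elane, Ctsg and Prtn3 had ratios of 0.354, 0.433 and 0.432. Cebpe had a ratio of 1.01 (0.922 to 1.11), against 1.34 in the granule ranking. Cell-cycle genes did not keep their order, since Mki67 had a ratio of 1.60 (1.31 to 1.94) and Top2a one of 1.35 (1.16 to 1.58) in this ranking, and Dnajb9 one of 0.997 (0.674 to 1.46).

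**Figure D3:**
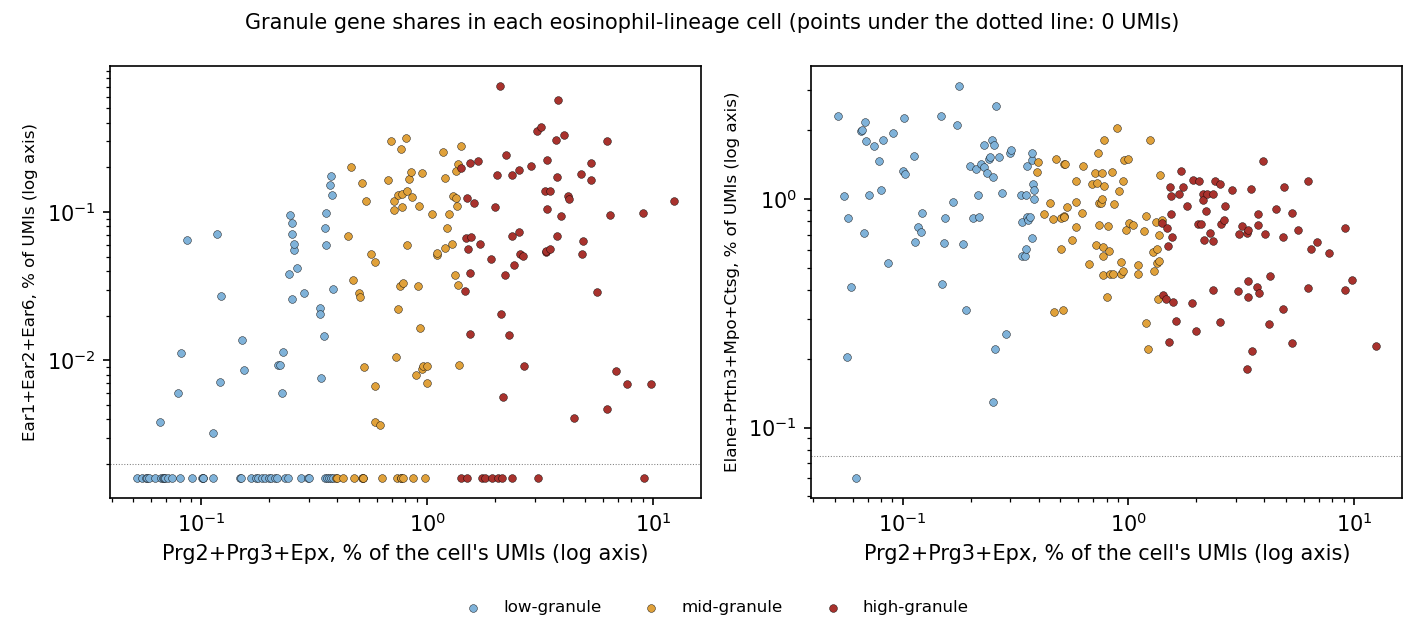
Each point is 1 of 217 members, with the share of its UMIs from Prg2, Prg3 and Epx on the x axis and that from Ear1, Ear2 and Ear6 (left) or from Elane, Prtn3, Mpo and Ctsg (right) on the y axis, all on log axes in percent, where points under the dotted line had 0 UMIs of the genes on the y axis. Ear-positive cells are more frequent from the low-granule (46.6%) to the high-granule group (86.1%), and the median share of the primary granule genes goes from 1.10% to 0.723%.

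At an equal depth of 5000 UMIs per cell the same order was seen over single cells. Across the 217 members, Spearman's rho of the granule UMIs was 0.434 with the Ear UMIs (Pearson's r 0.222), 0.369 with Ldhc (r 0.347), -0.376 with Elane, Prtn3, Mpo and Ctsg together (r -0.324) and 0.088 with Cebpe (r 0.099). It was 0.065 with Mcpt8. Cells of 1 library are not independent replicates and share its ambient RNA, the granule UMIs are part of the fixed total, and rho with the depth before thinning was -0.279, so these are descriptions.

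A further 146 cells with fewer than 5000 UMIs passed the rest of the rule, 15.6% of the 937 shallow cells (13.3 to 18.1). Their median was 1836 UMIs and 952 genes. They were not members, and the minimum of 5 granule UMIs is a larger share of a shallow cell, so their granule level is set in part by the rule. Their Ear6 level was 712 CPM (620 to 813) and their Ear2 level 764 CPM (669 to 869), both above those of the high-granule group. Elane was at 190 CPM (144 to 246), Ctsg at 249 CPM (196 to 312) and Mpo at 1824 CPM (1675 to 1982), all below the high-granule group. Myb was at 1469 CPM (1336 to 1612) and Cebpe at 876 CPM (774 to 987). Depth and the granule share moved together here, and their parts cannot be told apart.

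**Figure D4:**
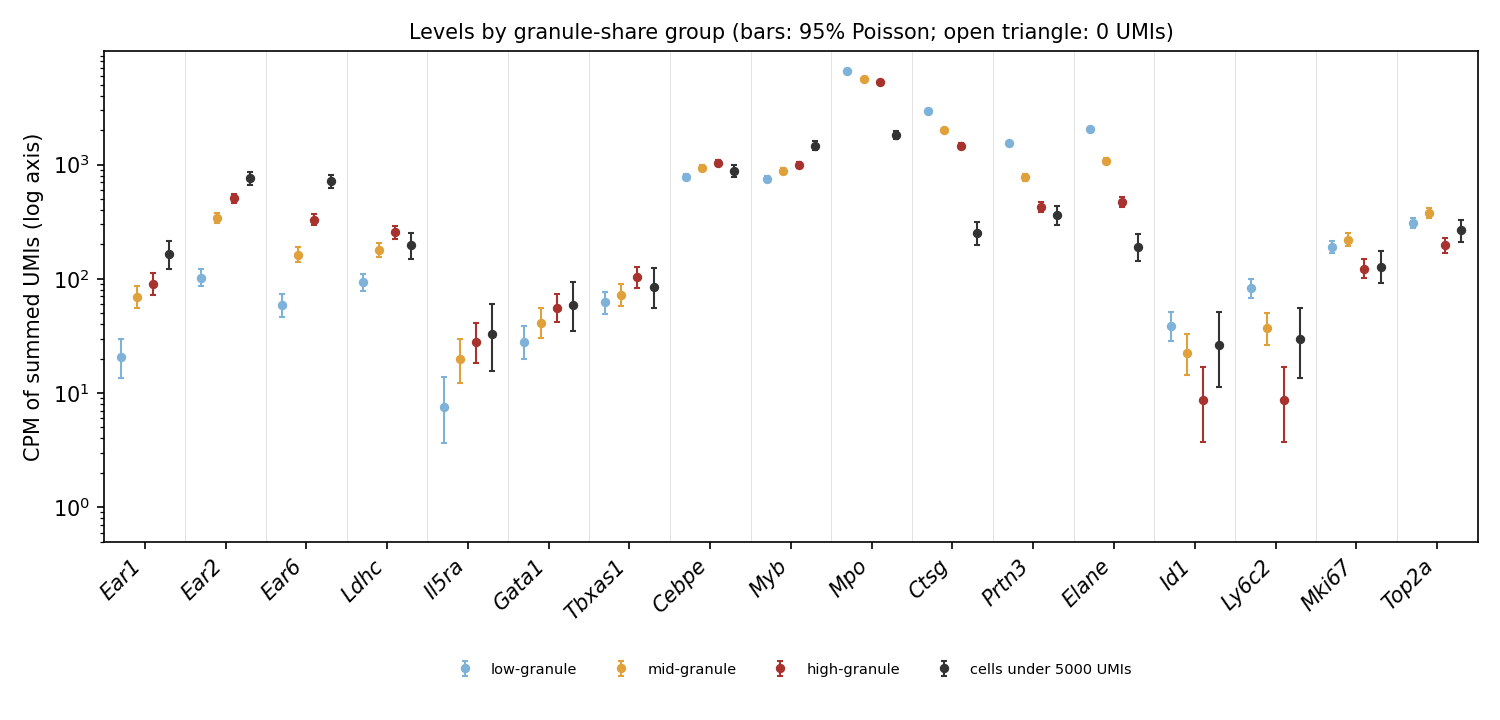
CPM of summed UMIs (log axis) for 17 genes in the low-, mid- and high-granule groups of the 217 members and in the 146 cells under 5000 UMIs that pass the rest of the rule, with exact Poisson 95% bars for counting error only. Ear1, Ear2, Ear6, Ldhc and Il5ra stand in ascending order from the low- to the high-granule group, Elane, Prtn3, Ctsg, Id1 and Ly6c2 in descending order, and Cebpe lies between 776 and 1037 CPM.

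Cells with both granule programmes were a separate set. Of 248 cells that passed the granule rule at 5000 UMIs, 31 had 0.5% or more Mcpt8 and were left out (12.5%, 8.65 to 17.3). In these 31 cells Prg2 had 4663 CPM, Epx 775 CPM, Mcpt8 12723 CPM and Prss34 12805 CPM. Their Ear6 level was 38.7 CPM (24.2 to 58.5) and their Ldhc level 17.6 CPM (8.43 to 32.3), both below the members' 168 and 166 CPM. Ear2 had 225 CPM (188 to 268) and Ear1 40.4 CPM (25.6 to 60.7), nearer to the members' 293 and 56.2 CPM. Their median depth was 17626 UMIs against 14180 in members. Whether they were doublets was not tested.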

How the data were processed

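The authors made UMI counts per gene and cell with Cell Ranger 3.0.2 against mm10, per the processing notes, and deposited them unnormalized. The annotation release is not given in the sources used here. Every count was used as deposited, and 0 columns of other samples were present. Coordinates are from GENCODE M21 (30934 of 31053 identifiers found), promoters from RefSeq. Cells were classed by the limits in the text. UMIs were summed per class and scaled to CPM, in Python 3.11.15 with SciPy 1.17.1. edgeR 4.0.16 was used for TMM scaling factors alone. The counts assume that UMIs are captured alike in each class.

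The members, lists and classes were chosen with earlier results of these data known. Named genes were the markers, the members of the fixed lists, and the 15 largest and 10 smallest ratios per comparison among genes with 50 CPM. Genes left out of a comparison's counts were left out of its ranking too. Between the granule groups only Prg2, Prg3 and Epx were left out. The 7 neutrophil-rule cells and the cells under 5000 UMIs were singled out after their values were seen. The fold call was tested on simulated data for members against all other cells, where it recovered 200 of 200 genes changed 4-fold, with 0 false calls among 5487 genes. The simulation drew summed counts with counting error only and no differences between cells. It therefore cannot tell how the call behaves for genes whose UMIs came from a few cells. The cKIT- library entered none of the 2-fold comparisons, and only its member count and levels of single genes were set beside the cKIT+ library. Other data of the study were not analysed here.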

Additional observations from a re-analysis of the deposited data

Results flagged for a closer look

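The cKIT- library entered none of the 2-fold comparisons and held 0 members. Epx had 424 UMIs in 321 of its cells (17.6 CPM over all cells, 16 to 19.4), whereas Prg2 had 5 UMIs and Prg3 had 3. No cell held more than 4 Epx UMIs. In the 22 cells with at least 3 of them, Prg2 had 0 UMIs, Mcpt8 had 36807 CPM, and all 22 had at least 0.5% Mcpt8. Ear2 had 1284 UMIs in 261 cells of that library (53.4 CPM, 50.5 to 56.4), with up to 30 in a cell, and Ear1 had 412 UMIs. Ccr3 had 17.7 CPM there against 2.04 CPM over all cells of the cKIT+ library. Epx, Ear2, Ear1, Ccr3 and, at 5 UMIs, Prg2 are above the 3 counts that a count of 0 allows, and Prg3 is not. That limit covers counting error only and not ambient RNA.

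Of the cKIT+ cells outside the comparisons, 146 cells under 5000 UMIs passed the rest of the rule, and 31 cells passed the granule rule at or above the Mcpt8 limit. Both sets are described above. The cause was not tested for any of these values.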

How the results depend on the processing

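No paired analysis was possible because each condition had 1 library, and no library could be left out. A granule share of 0.5% or more left 137 members, and the other settings for the member limits left between 160 and 251. With a minimum of 100 CPM, genes higher and lower numbered 13 and 68 against all other cells, 19 and 6 against Elane-high cells, 34 and 112 against basophil cells, and 4 and 19 between the granule groups. With 10 UMIs and no CPM minimum, genes higher and lower numbered 931 and 2419 against all other cells, 622 and 685 against Elane-high cells, 1261 and 1525 against basophil cells, and 311 and 392 between the granule groups. At 4-fold, genes higher and lower numbered 16 and 80 against all other cells, 11 and 12 against Elane-high cells, 60 and 97 against basophil cells, and 3 and 23 between the granule groups. With every cell given the same weight, 195 genes were higher than in all other cells, 131 than in Elane-high cells, and 102 in the high-granule group. With members of 0.5% or more granule share, 134 genes were higher and 75 lower than in Elane-high cells. Between the granule groups, 129 genes were higher with Mcpt8 under 0.1%, and 242 when cells were ranked by Ear share instead. Shares of members with Elane, Mcpt8, Camp and Mki67 or Top2a were 88.9%, 93.1%, 40.5% and 64.1% with all UMIs, 57.1%, 48.4%, 8.76% and 36.4% at 2000 UMIs, and 47%, 38.7%, 3.23% and 30.9% with at least 3 UMIs at 5000. Mcpt8 was found in 71% of members after cells with 0.1% or more were left out. 

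The remaining settings run for the counts, which were TMM scaling, scaling without the 10 most abundant genes, a minimum of 10000 UMIs, and leaving out the 10% of cells with most UMIs or the 7 neutrophil-rule cells (added after seeing the data), kept each count they were run for within 1.5 times the value reported. Of 136 values of single-gene ratios under the alternatives, 89 lay within the counting interval of the reported ratio, and no ratio past 2-fold changed its direction. TMM scaling moved the median log2 ratio against basophil cells from 0.05 to -0.09. Depth limits the shares of cells, and 1 library per condition limits every comparison to these libraries.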
